A study of Mus musculus with 24 samples.

Results

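The genes described here encode the proteins of the cytosolic ribosome, in mouse diaphragms during the first week of infection with larvae of Trichinella spiralis. Members were all genes whose symbol on the array starts with Rpl or Rps and a digit, plus Rplp0, Rplp1, Rplp2 and Rpsa, without the Rps6k kinases and pseudogenes. The rule gave 66 symbols with 84 probes among the 16593 genes of the array annotation. After a filter on low signal, 59 of 8660 genes measured on the arrays of RAG mice were members, and 56 of 8226 genes measured on the arrays of PHIL and WT mice. Rpl14, Rpl17, Rpl39l, Rpl6, Rplp2, Rpsa and Rps23rg1 passed the filter in neither set, while Rpl22l1, Rpl7a and Rps23 passed it on the RAG arrays alone. The rule also took in Rps19bp1, which encodes a protein that binds Rps19 and is not itself a ribosomal protein, and it was counted as a member throughout.

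RNA was taken from whole diaphragms of 24 mice, all on a C57BL/6 background, and each mouse was hybridised to an array of its own (Illumina MouseRef-8 v2.0). RAG mice are Rag1-/- and lack mature T and B cells, PHIL mice carry a transgene that kills eosinophils through a diphtheria toxin chain under the eosinophil peroxidase promoter, and WT mice carry neither change. Each strain had 2 naive mice, 3 mice at 2 days post infection (dpi) and 3 mice at 7 dpi, and infected mice had received 25000 newborn larvae intravenously, without the intestinal phase of an oral infection. RAG and PHIL mice lack their cells from birth and in every tissue, and the ages of the mice are not given in the sources used here.

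Each ribosome carries 1 copy of most of these proteins, and their genes are expressed in every tissue. Many of their mRNAs begin with a run of pyrimidines at the cap, the 5′ terminal oligopyrimidine (TOP) motif, through which mTOR signalling and the protein Larp1 govern their translation. In skeletal muscle, ribosome production rises with growth, regeneration and activation of satellite cells, and muscle fibres also use a paralogue of Rpl3, Rpl3l, that most other tissues lack.

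The start sites of members were examined first, since the TOP motif is what these mRNAs are known to share and the member rule did not use sequence. RefSeq windows (GRCm38.p6) were available for 51 of the 59 measured members. A C followed by at least 4 pyrimidines (C or T), beginning within 5 bases of the annotated start on the transcribed strand, was present in 26 of 62 member windows (41.9%) and in 5610 of 32851 windows of all genes (17.1%). The run on the other strand was present in 10 member windows (16.1%) and in 20% of all windows. The motif CTTCCG, read on both strands of the window of 250 bases before to 50 bases after the start, was present in 38 member windows (61.3%) and in 5537 of all windows (16.9%). A CTTCCG on the transcribed strand can overlap the pyrimidine run, so the counts are not separate properties. Several starts shown here (10 bases before the start to 20 from it) belong to members described further on, and the pyrimidine run is in capitals.
Rpl13a, chr7:45128726-45128755, minus strand: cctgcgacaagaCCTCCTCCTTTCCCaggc
Rpl12, chr2:32961702-32961731, plus strand: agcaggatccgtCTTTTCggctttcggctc
Rps26, chr10:128626487-128626516, minus strand: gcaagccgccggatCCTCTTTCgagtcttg
Rps6, chr4:86857348-86857377, minus strand: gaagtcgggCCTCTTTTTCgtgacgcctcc
Rpl35a, chr16:33056472-33056501, plus strand: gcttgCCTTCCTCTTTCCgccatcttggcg
Rps24, chr14:24490668-24490697, plus strand: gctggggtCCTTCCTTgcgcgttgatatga
Rpl5, chr5:107900518-107900547, plus strand: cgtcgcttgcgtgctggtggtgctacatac
Rpl3l, chr17:24727816-24727845, plus strand: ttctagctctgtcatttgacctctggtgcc
The first 6 starts hold a run of 6 to 14 pyrimidines. Rpl35a has 3 annotated starts and Rps24 has 2, of which 1 each holds the run and is shown. The annotated starts of Rpl5, and of the muscle paralogue Rpl3l, hold none in this window, which says only that the letters are not there. Of the other members described below as called higher in WT mice at 2 dpi, Rpl39 and Rps9 hold a run. The starts of Rpl10, Rpl36a, Rpl4, Rplp0, Rps3 and Rps3a1 hold none, and no window was available for Rpl3. The starts shown therefore do not reflect the share of members with the run.

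Median bead signal lay between 295.1 and 333.4 on the RAG arrays and between 106.3 and 131.9 on the PHIL and WT arrays, so the sets were normalised apart and their levels were not set against each other. Muscle genes such as Acta1, Ckm and Myh7 were detected on all 24 arrays. The T cell genes Cd3e and Cd3g were detected on 0 of 8 RAG arrays and on all arrays of PHIL and WT mice at 7 dpi. Another T cell gene, Cd8a, was detected on no array of any strain. The B cell gene Cd79b was detected on 1 RAG array (at 2 dpi) and on every array of infected PHIL and WT mice. The eosinophil genes Epx, Prg2, Ccr3 and Il5ra were detected on no array, so the PHIL label could not be checked. Eif2s3y, a gene of the Y chromosome, was detected on 8 RAG arrays, on 2 of 8 PHIL arrays (both at 7 dpi) and on 4 of 8 WT arrays. With its detection as a covariate the counts of called members were 9, 1 and 8 in PHIL mice and 15, 6 and 6 in WT mice, for 2 dpi against naive, 7 dpi against naive and 7 dpi against 2 dpi (9, 1 and 7, and 15, 5 and 6, without it), a fit added after the data were seen.

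At 2 dpi, calls among ribosomal protein transcripts were in 1 direction, higher than in naive mice, in all 3 strains. A gene was called where the Benjamini-Hochberg adjusted p from limma was at most 0.05 and the change at least 1.5-fold. In RAG mice 5 of 59 members were called higher (8.47%), against 6.8% of all genes. In PHIL mice 9 of 56 were called higher (16.1%), against 10.6% of all genes, and in WT mice 15 of 56 (26.8%), against 13.1%. No member was called lower at 2 dpi in any strain, against 3.05%, 7.94% and 10.3% of all genes in RAG, PHIL and WT mice. Counts by subunit left out the large subunit proteins Rpl5, Rplp0 and Rplp1, the paralogues and Rps19bp1. Of the rest, 1 of 22 small and 3 of 28 large subunit proteins were called in RAG mice. In PHIL mice these were 2 of 21 and 6 of 27, and in WT mice 5 of 21 and 8 of 27. Their medians on the log2 scale were 0.27 and 0.34, 0.35 and 0.45, and 0.41 and 0.41. Of those left out, Rpl5 was called in PHIL and WT mice, Rplp0 in WT mice and the paralogue Rpl22l1 in RAG mice.

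Most of the changes were smaller than 1.5-fold. By the adjusted p alone, 9 members were higher in RAG mice (15.3%, against 8.41% of all genes), 31 in PHIL mice (55.4%, against 15.1%) and 40 in WT mice (71.4%, against 19.1%). The RAG fit was less precise, so counts of called members in RAG mice are not comparable with those in PHIL and WT mice. The median half-width of the 95% interval over members was 0.35 on the log2 scale in RAG mice, against 0.24 in PHIL and WT mice. The median change over members on the log2 scale was 0.28 in RAG mice, 0.35 in PHIL mice and 0.40 in WT mice, where the median over all genes tested was -0.06, -0.06 and -0.05. Members with a change above 0 were 55 of 59, 49 of 56 and 50 of 56 in RAG, PHIL and WT mice, whereas 43.3%, 44.5% and 46.1% of all genes tested were above 0. All infected mice lay above both naive mice for 40 members in RAG (67.8%), 47 in PHIL (83.9%) and 46 in WT (82.1%), and for 19.1%, 25.7% and 27.9% of all genes. Of the 56 members measured in every strain, 49 had a change above 0 in all 3 and 4 had a change below 0 in all 3. Members shifted together on an array, so these counts are not of separate observations. On RAG 2 dpi mouse 2, 44 of 59 members lay above their group mean. The median deviation of members from their group mean was -0.09 to 0.15 over RAG arrays and -0.05 to 0.09 over PHIL and WT arrays. In whole tissue, more cells of a type and more RNA per cell cannot be told apart.

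**Figure D1:**
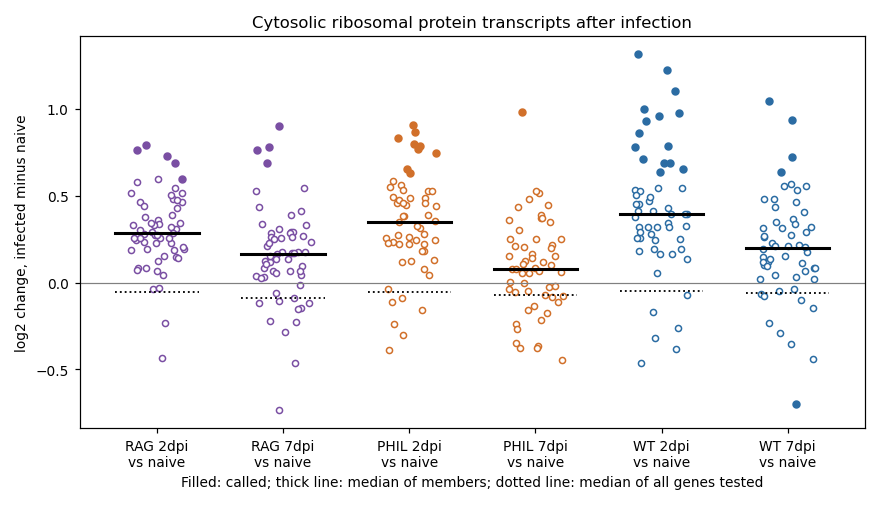
Change of each measured member after infection (log2, infected minus naive mice of the same strain) for RAG, PHIL and WT mice at 2 and 7 dpi. Each point is a gene, filled points were called, the thick line is the median over members and the dotted line the median over all genes tested; the medians over members at 2 dpi were 0.28, 0.35 and 0.40.

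Rpl3, a core protein of the large subunit beside the site of peptide bond formation, changed most steadily. Its log2 normalised signal was 14.61, 14.76 and 14.47 in RAG mice at 2 dpi, against 13.90 and 13.74 in naive RAG mice. In PHIL mice it was 13.27, 13.25 and 13.42 at 2 dpi, against 12.31 and 12.50 in naive mice. In WT mice it was 13.37, 13.42 and 13.65 at 2 dpi, against 12.34 and 12.17 in naive mice. Infected and naive mice did not overlap in any strain. The change was 0.79 ± 0.15 (SE) on the log2 scale in RAG mice (1.73-fold, adjusted p = 0.00641), 0.91 ± 0.14 in PHIL mice (1.88-fold, adjusted p = 0.000296) and 1.22 ± 0.14 in WT mice (2.33-fold, adjusted p = 1.96e-05). Rpl3 kept its call in each strain under every change of processing and with each array left out, but at a 2-fold threshold it was called in WT mice and not in RAG or PHIL mice.

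Rpl13a and Rpl12 were the other members called at 2 dpi in all 3 strains. Rpl13a, a large subunit protein that is also released from the ribosome to silence inflammatory mRNAs in human monocytic cells, had log2 signals of 10.68, 10.62 and 10.80 in RAG mice at 2 dpi and 10.03 and 9.85 in naive RAG mice. In PHIL mice it had 9.80, 9.79 and 9.78 at 2 dpi and 9.01 and 8.97 in naive mice. In WT mice it had 9.71, 9.75 and 9.91 at 2 dpi and 8.89 and 8.78 in naive mice. The groups were separate in each strain, and the change was 1.70-fold in RAG, 1.74-fold in PHIL and 1.94-fold in WT mice (adjusted p = 0.00491, 0.000146 and 2.73e-05).
Rpl12, which sits at the base of the ribosomal stalk, had log2 signals of 12.83, 12.97 and 12.86 in WT mice at 2 dpi, against 12.26 and 12.13 in naive WT mice, a 1.61-fold change (adjusted p = 9.4e-05). In PHIL mice the change of Rpl12 was 1.57-fold (adjusted p = 0.000173). In RAG mice it was 1.51-fold at the edge of the threshold (adjusted p = 0.0499), and this call was lost in 12 of 17 alternative settings.

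The members called in both PHIL and WT mice were 9, that is, all 9 called in PHIL mice and 9 of the 15 called in WT mice. Besides the 3 genes above they were Rpl35a and Rps24, both mutated in human Diamond-Blackfan anaemia, Rpl10, which joins the large subunit late in its assembly, Rpl5, which carries 5S rRNA into it, Rpl4 and Rps3a1. Rpl5 had log2 signals of 12.67, 12.78 and 12.72 in PHIL mice at 2 dpi, against 11.81 and 11.97 in naive PHIL mice, and 13.02, 12.86 and 12.82 in WT mice at 2 dpi, against 11.99 and 11.95 in naive WT mice. All infected mice were above all naive mice of their strain, by 1.78-fold in PHIL (adjusted p = 0.000181) and 1.91-fold in WT mice (adjusted p = 6.01e-05). Rpl35a had 10.34, 10.53 and 10.42 in PHIL mice at 2 dpi, against 9.35 and 9.77 in naive PHIL mice, and 10.52, 10.67 and 10.63 in WT mice at 2 dpi, against 9.64 and 9.37 in naive WT mice. These groups did not overlap either, with changes of 1.83-fold and 2.14-fold (adjusted p = 0.00606 and 0.000947).
Rpl10 changed 1.71-fold in PHIL and 2.00-fold in WT mice (adjusted p = 0.00139 and 0.000143), and Rpl4 1.55-fold and 1.72-fold (adjusted p = 0.000233 and 3.3e-05). Rps3a1 was detected on no naive PHIL array, so the change there was at least 1.29-fold, taken against the detection limit (adjusted p = 0.0176), and in WT mice it was 1.81-fold (adjusted p = 0.0061). Without PHIL naive mouse 1 the PHIL calls of Rpl35a (0.66, adjusted p = 0.0838), Rpl4 (0.53, under the fold threshold), Rps3a1 (adjusted p = 0.147) and Rps24 (0.43, adjusted p = 0.291) were lost. Those of Rps3a1 and Rps24 were also lost without PHIL 2 dpi mouse 2 (adjusted p = 0.0652 and 0.0801), and that of Rps24 without PHIL 2 dpi mouse 3 (0.76, adjusted p = 0.0577). In WT mice the call of Rps3a1 was lost without WT naive mouse 1 (0.53, adjusted p = 0.105).

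The 6 further members called in WT mice were Rps9, Rps6, Rpl39, Rpl36a, Rplp0 and Rps3. Rps6, the substrate of the S6 kinases, had log2 signals of 11.94, 12.14 and 12.10 at 2 dpi, against 11.26 and 11.29 in naive WT mice, a separation of all mice and a 1.72-fold change (adjusted p = 0.000222). Rps9 changed 1.97-fold (adjusted p = 0.000135), Rpl39, in the peptide exit tunnel, 1.64-fold (adjusted p = 0.0037) and Rpl36a 1.61-fold (adjusted p = 0.00121). Rps3, which lines the mRNA entry channel, changed 1.56-fold (adjusted p = 0.00166). The call of Rpl39 was lost without WT naive mouse 2 (0.49, adjusted p = 0.0732), and so was that of Rplp0, at 0.53. In PHIL mice these 6 genes had changes of 0.49 to 0.58 on the log2 scale, under the 1.5-fold threshold, with adjusted p of 0.00153 to 0.0337.

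Rps26, which contacts mRNA at the exit channel, and Rpl22l1, the paralogue of Rpl22, were called at 2 dpi in RAG mice. For Rps26 the log2 signal was 14.66, 14.96 and 14.86 in RAG mice at 2 dpi, against 14.26 and 13.93 in naive RAG mice (1.66-fold, adjusted p = 0.0125), and the call was lost without RAG naive mouse 2 (0.56, adjusted p = 0.0915). In PHIL and WT mice Rps26 changed 1.27-fold and 1.35-fold (adjusted p = 0.0299 and 0.00828), and its change in RAG mice did not pass the test of a difference from that in WT mice (adjusted p = 0.322). Rpl22l1 had 8.65, 8.75 and 8.45 in RAG mice at 2 dpi, against 8.12 and 7.74 in naive RAG mice (1.61-fold, adjusted p = 0.0382, lost in 8 of 17 alternative settings), and was not measured in PHIL and WT mice. Its partner Rpl22 had a change of -0.04 in RAG mice. The RAG counts rested on few arrays: 5 members were called with all arrays, 2 without RAG naive mouse 2, and 3 without RAG naive mouse 1, without RAG 2 dpi mouse 2, or without RAG 7 dpi mouse 1.

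**Figure D2:**
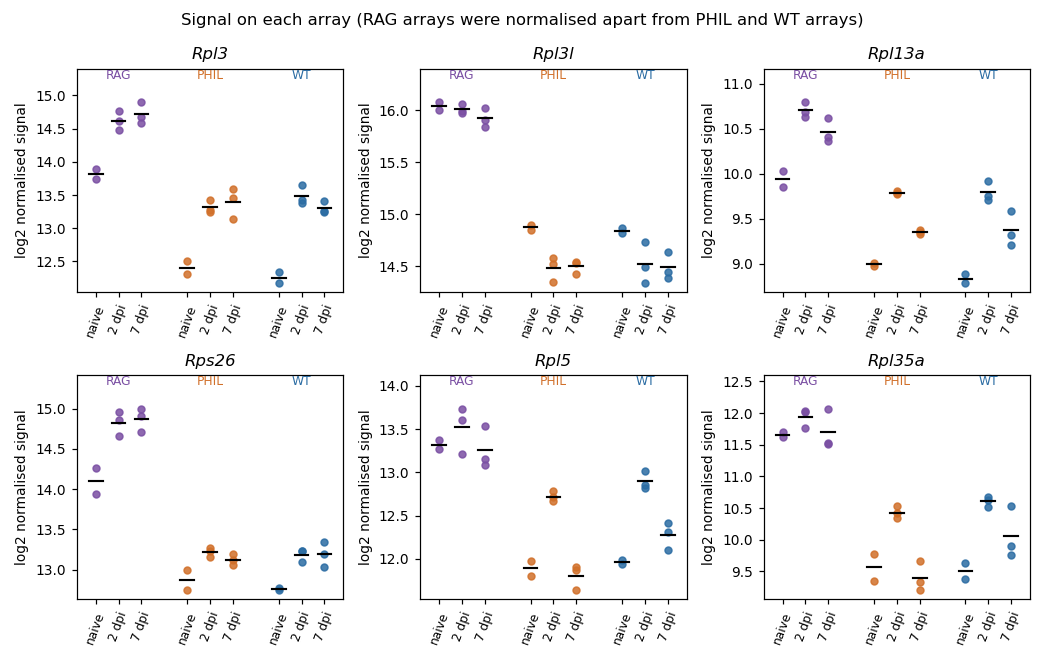
Log2 normalised signal of 6 members on each array, for RAG, PHIL and WT mice that were naive or at 2 or 7 dpi; each point is a mouse and the line is the group mean. Levels of RAG mice and of PHIL and WT mice are on separate scales, since the sets were normalised apart. Rpl3, Rpl13a and Rps26 lie above naive mice at both times. Rpl5 and Rpl35a lie above naive mice at 2 dpi alone in PHIL mice and at both times in WT mice. In RAG mice Rpl35a lies above naive mice at 2 dpi alone and Rpl5 at neither time. Rpl3l in PHIL and WT mice lies below naive mice.

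At 7 dpi the members stood closer to naive levels. In RAG mice 4 of 59 were called higher than in naive mice (6.78%), against 17.6% of all genes, and 6 by the adjusted p alone (10.2%, against 20.1%). In PHIL mice 1 of 56 was called higher (1.79%), against 14.9% of all genes, and 10 by the adjusted p alone (17.9%, against 20.6%). In WT mice 4 of 56 were called higher (7.14%), against 16.3% of all genes, and 19 by the adjusted p alone (33.9%, against 22.6%). One member, Rps19, was called lower in WT mice (1.79%), against 11.8% of all genes. The median change over members was 0.16, 0.08 and 0.20 on the log2 scale in RAG, PHIL and WT mice, where that of all genes was -0.09, -0.07 and -0.06. This remaining shift depended on normalisation. With arrays scaled to a common median the members stood 0.01 above all genes in RAG mice and -0.06 and -0.01 from them in PHIL and WT mice at 7 dpi, whereas at 2 dpi they stood 0.30, 0.33 and 0.35 above all genes.

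Rpl3 was the member called at 7 dpi in all 3 strains. It had 14.68, 14.91 and 14.58 in RAG mice at 7 dpi, 13.59, 13.13 and 13.45 in PHIL mice and 13.24, 13.41 and 13.26 in WT mice, all above the naive mice of their strain. The change from naive was 1.87-fold in RAG, 1.98-fold in PHIL and 2.07-fold in WT mice (adjusted p = 0.00374, 9.44e-05 and 5.31e-05). In WT mice Rpl36a, a neighbour of the tRNA exit site, had 11.91, 12.25 and 11.83 at 7 dpi, against 11.19 and 11.35 in naive mice (1.65-fold, adjusted p = 0.000669), and Rpl39 changed 1.56-fold (adjusted p = 0.00599). The call of Rpl39 was lost without WT naive mouse 2 (0.42, adjusted p = 0.108) or WT 7 dpi mouse 2 (0.51). Rps24 was at least 1.22-fold higher in WT mice at 7 dpi, against the detection limit (adjusted p = 0.00668), and the call was lost without WT naive mouse 1 (adjusted p = 0.0919). In RAG mice Rps26 (1.71-fold), Rpl31 (1.70-fold) and Rpl38 (1.61-fold) were called (adjusted p = 0.0097, 0.00951 and 0.0258), and without RAG naive mouse 2 the only member called was Rpl3 (Rps26 0.61, Rpl31 0.67 and Rpl38 0.62, adjusted p = 0.0731, 0.0644 and 0.123). The call of Rpl38 was lost when any naive or 7 dpi RAG array was left out, with a log2 change of 0.62 to 0.75. Rpl38 is needed in mouse embryos for translation of Hox mRNAs. The counts at 7 dpi were 9 in WT mice without WT 7 dpi mouse 3 and 2 in PHIL mice without PHIL naive mouse 2.

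Between 2 and 7 dpi calls among the members were all in the lower direction. Of all genes, 13.9%, 10.7% and 10.6% were called higher in RAG, PHIL and WT mice. By the adjusted p alone, 0, 3 and 1 members were higher. At 7 dpi against 2 dpi, 1 of 59 members was called lower in RAG mice (1.69%), against 9.02% of all genes, and 5 by the adjusted p alone (8.47%, against 14.9%). In PHIL mice 7 of 56 were called lower (12.5%), against 9.57% of all genes, and 22 by the adjusted p alone (39.3%, against 19.5%). In WT mice 6 of 56 were called lower (10.7%), against 8.05% of all genes, and 20 by the adjusted p alone (35.7%, against 18.2%). The median change over members was -0.10, -0.18 and -0.18 in RAG, PHIL and WT mice, against -0.05, -0.02 and -0.02 over all genes. Changes before and after 2 dpi share the arrays of 2 dpi and are not separate measurements.

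Rpl5, Rpl10, Rps3, Rps3a1 and Rps9 were called lower at 7 dpi than at 2 dpi in both PHIL and WT mice. Rpl5 was at 11.91, 11.64 and 11.87 in PHIL mice at 7 dpi, against 12.67, 12.78 and 12.72 at 2 dpi (1.89-fold lower, adjusted p = 2.58e-05). In WT mice it was at 12.10, 12.42 and 12.32 at 7 dpi, against 13.02, 12.86 and 12.82 at 2 dpi (1.53-fold lower, adjusted p = 0.000556). The times were separate in both strains, and the PHIL mice at 7 dpi overlapped naive PHIL mice. Rps3 was at 8.24, 8.21 and 8.44 in PHIL mice at 7 dpi, against 9.27, 9.21 and 9.22 at 2 dpi (1.91-fold lower, adjusted p = 3.81e-05), and at 8.28, 8.78 and 8.65 in WT mice at 7 dpi, against 9.32, 9.27 and 9.34 at 2 dpi (1.67-fold lower, adjusted p = 0.000241). Rpl35a, 2.04-fold lower (adjusted p = 0.000629), and Rps25, which some viral mRNAs need for initiation, 1.65-fold lower (adjusted p = 0.00149), were called in PHIL mice alone. In WT mice Rpl35a was at 9.76, 10.53 and 9.91 at 7 dpi, against 10.52, 10.67 and 10.63 at 2 dpi. Rps25 in WT mice was at 11.80, 11.82 and 11.83 at 7 dpi, against 12.03, 12.10 and 12.29 at 2 dpi. Rpl4 was called in WT mice alone, 1.76-fold lower (adjusted p = 6.9e-06), with 9.69, 9.69 and 9.64 at 7 dpi against 10.43, 10.49 and 10.54 at 2 dpi. In PHIL mice Rpl4 was 1.48-fold lower (adjusted p = 0.000168), just under the fold threshold. Whether these changes differed between PHIL and WT mice was not tested. In WT mice the call of Rpl5 was lost without WT 2 dpi mouse 1 (-0.56) or WT 7 dpi mouse 1 (-0.53), that of Rpl10 without WT 2 dpi mouse 2 (-0.53), WT 7 dpi mouse 1 (-0.58) or mouse 3 (-0.51), and that of Rps9 without WT 7 dpi mouse 3 (-0.56). In PHIL mice that of Rps25 was lost without PHIL 7 dpi mouse 2 (-0.53). All of these left-out fits kept an adjusted p under 0.05 and lay under the fold threshold. On their brighter probes Rps9 and Rps3 were not called in either strain, with changes of -0.05 for Rps9 and -0.31 for Rps3 in PHIL mice and -0.11 and -0.39 in WT mice.
In RAG mice the call was Rps23, a protein of the decoding centre, which had 6.90, 6.77 and 6.72 at 7 dpi against 7.42, 7.59 and 7.19 at 2 dpi (1.52-fold lower, adjusted p = 0.0222). It was lost without RAG 2 dpi mouse 1 (-0.59) or mouse 2 (-0.51) or RAG 7 dpi mouse 2 (-0.58) or mouse 3 (-0.56), with adjusted p of 0.0521 to 0.0623. The probe of Rps23 was dim, with a mean signal of 392. Counting changes of processing too, the call was lost in 9 of 17 alternative settings, and the log2 change ranged from -0.70 to -0.21. The count of members called was 0 without RAG 2 dpi mouse 1 or mouse 2, 3 without RAG 2 dpi mouse 3 or RAG 7 dpi mouse 2 and 2 without RAG 7 dpi mouse 3.

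**Figure D3:**
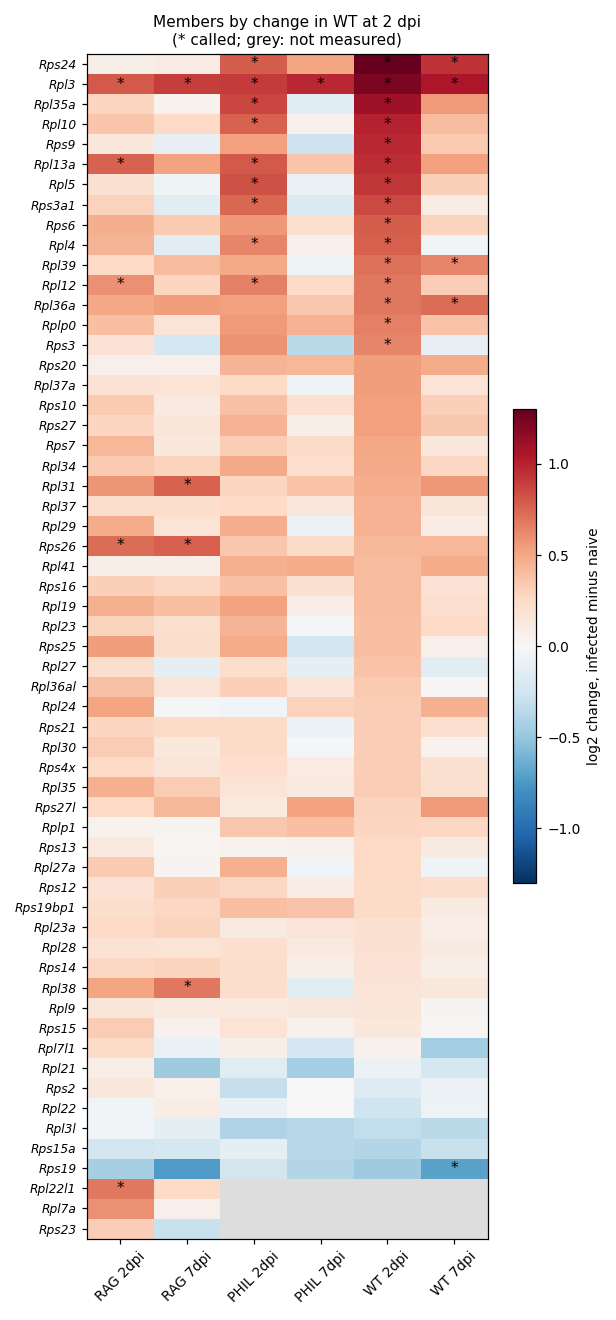
Change of each measured member from naive mice (log2; red higher, blue lower) in RAG, PHIL and WT mice at 2 and 7 dpi, ordered by the change in WT mice at 2 dpi. Asterisks mark calls and grey cells genes not measured; the 15 calls in WT mice at 2 dpi stand at the top.

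Paralogues did not all move with the members of the core ribosome. Rpl3l, the form of Rpl3 used in heart and skeletal muscle, had log2 signals of 14.52, 14.35 and 14.58 in PHIL mice at 2 dpi, against 14.84 and 14.90 in naive PHIL mice. In WT mice it had 14.73, 14.34 and 14.49 at 2 dpi, against 14.82 and 14.86 in naive mice. Every infected mouse was below both naive mice in these strains, where Rpl3 was above. The difference was under 1.5-fold, at -0.39 ± 0.12 (SE) in PHIL mice (adjusted p = 0.0285) and -0.32 ± 0.12 in WT mice (adjusted p = 0.053). At 7 dpi it was -0.37 in PHIL mice (adjusted p = 0.0255) and -0.35 in WT mice (adjusted p = 0.0311). In RAG mice Rpl3l lay between 15.84 and 16.09 on all 8 arrays, near the brightest signals of that scanner range.

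Rps27l, a paralogue of Rps27 that p53 induces, was highest at 7 dpi. In WT mice it had 12.92 and 12.89 in naive mice, 13.19, 13.24 and 13.17 at 2 dpi and 13.50, 13.51 and 13.37 at 7 dpi, with no overlap between times. The change from naive at 7 dpi was 0.43 in RAG (adjusted p = 0.0361), 0.53 in PHIL (adjusted p = 0.000587) and 0.56 in WT mice (adjusted p = 0.000355), under the 1.5-fold threshold in each, while Rps27 had 0.15, 0.08 and 0.35. Rpl7l1 had a change of -0.44 in WT mice at 7 dpi (adjusted p = 0.0017) and of -0.22 in PHIL mice (adjusted p = 0.0687). Rpl36al had changes of 0.38, 0.31 and 0.34 at 2 dpi in RAG, PHIL and WT mice, beside 0.50, 0.53 and 0.69 for Rpl36a, with adjusted p for Rpl36al of 0.0735, 0.0335 and 0.0187.
Rplp0 and Rplp1, the measured proteins of the acidic stalk that recruits elongation factors, had changes of 0.55 and 0.35 in PHIL mice at 2 dpi (adjusted p = 0.00153 and 0.0164) and of 0.65 and 0.28 in WT mice (adjusted p = 0.000326 and 0.04). Only Rplp0 in WT mice passed the fold threshold, at 1.57-fold. In RAG mice the probe for Rplp0 was detected on no naive array, the other probe of Rplp0, detected on all 8 arrays, gave a change of 0.62, and Rplp1 lay between 15.99 and 16.09 on every array.

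Some members had more than 1 measured probe, 10 in RAG mice and 9 in PHIL and WT mice, and these did not always give the same change. For Rps24 in WT mice at 2 dpi the probe used had a mean signal of 184 and was detected on no naive WT array. Its log2 signal was 6.90, 7.20 and 6.78 at 2 dpi, against 5.37 and 5.92 in naive WT mice, at least 1.59-fold higher against the detection limit (adjusted p = 0.000919). The other probe of Rps24, with a mean signal of 21326, gave a change of 0.32. For Rps9 the probe used (mean signal 539) gave 0.98 and the other (mean signal 4632) gave 0.24, while the probes of Rps3 gave 0.64 and 0.66. The Rps3 probes were less alike at 7 dpi, where the change from naive was -0.35 with the probe used and 0.11 with the brighter one in PHIL mice, and -0.10 and 0.27 in WT mice. The call of Rps19 as lower in WT mice at 7 dpi came from a probe with a mean signal of 148, at 5.44, 5.92 and 5.67 at 7 dpi against 6.12 and 6.63 in naive mice (-0.70, adjusted p = 0.0102), and was lost without WT naive mouse 2 (-0.45, adjusted p = 0.153) or WT 7 dpi mouse 1 (-0.58). The other Rps19 probe (mean signal 11213) gave 0.28 in that comparison, so the direction for this gene depends on the probe. Rpl31 and Rpl38 in RAG mice at 7 dpi gave 0.77 and 0.69 with the probes used and 0.09 and 0.10 with their other probes. Probe sequences and the transcripts they match were not examined here.

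**Figure D4:**
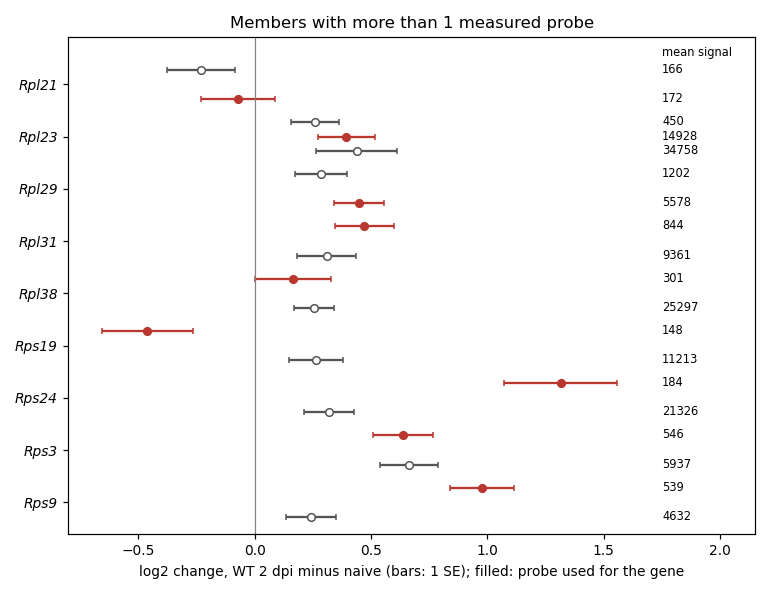
Change in WT mice at 2 dpi (log2, infected minus naive; bars are 1 SE) for each probe of the 9 members with more than 1 measured probe, with the mean signal of each probe over the 16 PHIL and WT arrays at the right. Filled points are the probes that stand for the gene; those of Rps24, Rps9 and Rps19 lie apart from the other probe of the gene.

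PHIL and WT mice did not differ in any member by the call used. The count was 0 of 56 in naive mice, at 2 dpi and at 7 dpi, where 0%, 0% and 0.486% of all genes were called. At an unadjusted p under 0.05, 1, 1 and 12 members differed, and 677, 781 and 1218 of 8226 genes. The 95% interval of the difference lay within 1.5-fold for 50 of 56 members in naive mice, 54 at 2 dpi and 50 at 7 dpi. The lowest adjusted p was that of Rpl5 at 7 dpi, with 11.91, 11.64 and 11.87 in PHIL mice and 12.10, 12.42 and 12.32 in WT mice, without overlap (-0.47 ± 0.11 (SE), adjusted p = 0.0602). Rpl35a had the largest difference at 7 dpi, with 9.67, 9.21 and 9.34 in PHIL mice and 9.76, 10.53 and 9.91 in WT mice (-0.66, adjusted p = 0.104). The change from naive differed between PHIL and WT mice for 0 members at 2 dpi and 0 at 7 dpi, where 0.0122% and 0% of all genes were called. At an unadjusted p under 0.05 these were 1 and 4 members, and the 95% interval lay within 1.5-fold for 44 and 37 of 56. Across the 56 members the changes at 2 dpi correlated with r = 0.92 between PHIL and WT mice, which share no mice, though the probes are the same and the arrays were normalised together.

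RAG and WT mice were compared by their change from naive, with all 24 arrays normalised together. At 2 dpi, 3 of 56 members differed by the call (5.36%), against 6.03% of all genes (3.82% lower and 2.21% higher in RAG mice). Over the 56 members the median difference (RAG minus WT) was -0.03 on the log2 scale, against 0.01 over all genes, and 23 members were above 0. All 3 called members had the smaller change in RAG mice. They were Rps24 (fitted difference -1.33, adjusted p = 0.0266), Rps9 (-0.86 ± 0.20, adjusted p = 0.0186) and Rpl5 (-0.75 ± 0.22, adjusted p = 0.0448). The probe of Rps24 was detected on no naive WT array, so its fitted difference is not a measured size. Rpl5 had 13.61, 13.74 and 13.21 in RAG mice at 2 dpi, against 13.37 and 13.27 in naive RAG mice, so that the groups overlapped there and not in WT mice. Rps9 had 11.66, 11.86 and 11.54 in RAG mice at 2 dpi, against 11.69 and 11.40 in naive RAG mice, and Rps24 had 7.61, 7.52 and 7.82 at 2 dpi, against 7.57 and 7.59. With the brightest probe, chosen as an alternative after the data were seen, the difference was 0.11 for Rps9 and -0.14 for Rps24 and neither was called. The count was 0 without RAG naive mouse 1, and 1 without RAG naive mouse 2, WT naive mouse 1, WT naive mouse 2 or WT 2 dpi mouse 2. At 7 dpi 0 of 56 members differed, where 1.44% of all genes were called, and 5 members and 1414 genes had an unadjusted p under 0.05. Strain and any difference in how the sets were run cannot be told apart. Detection of Eif2s3y, of the Y chromosome, was also uneven between RAG and WT arrays, as given above. With its detection as a covariate, added after the data were seen, 3 members were called at 2 dpi and 0 at 7 dpi.

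The RAG arrays also reached a brighter range. The highest signal was 70347.9 to 71441 on the RAG arrays and 54770.8 to 63045.6 on the PHIL and WT arrays. In RAG mice 10 members had a mean signal over 40000, a limit chosen after the data were seen, and in PHIL and WT mice 0 had. These 10 had a median change of 0.15 at 2 dpi (highest 0.27), and the other 49 members 0.33. In WT mice the same 10 changed by -0.32 (Rpl3l) to 0.54 (Rps20) at 2 dpi, where the median over the 56 members was 0.40. Among them Rpl37, Rpl41 and Rps20 lay above that median and the rest below it. Saturation is not marked in the deposited table, and its part in the smaller changes of these 10 in RAG mice was not tested. Rps24, Rps9 and Rpl5 were not among the 10. Across the 56 members the changes at 2 dpi correlated with r = 0.53 between RAG and WT mice, over the same probes except for Rplp0.

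**Figure D5:**
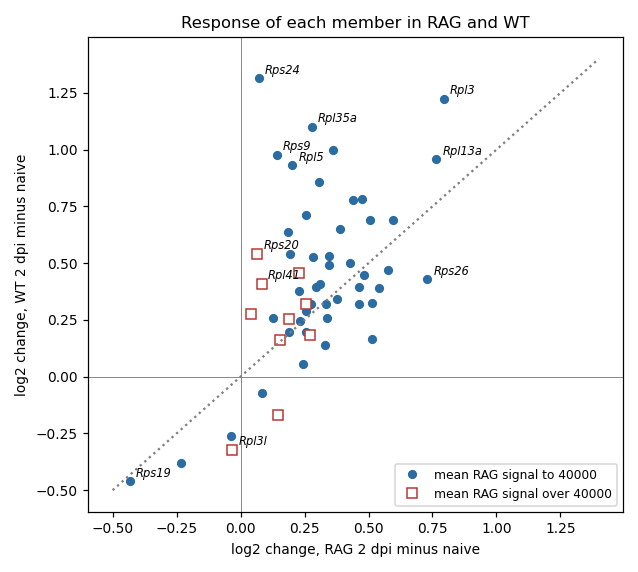
Change of each of 56 members at 2 dpi in RAG mice (horizontal, log2) against the change in WT mice (vertical, log2); the dotted line marks equal changes. Open squares are members with a mean signal over 40000 on the RAG arrays. Among the labelled genes Rps24, Rps9, Rpl35a and Rpl5 lie well above the line and Rps26 lies below it. Rpl35a (0.28 in RAG and 1.10 in WT mice) was not called in the test of a difference.

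Other genes of the translation machinery were described from lists chosen alongside the members. Over all genes in RAG, PHIL and WT mice, 6.8%, 10.6% and 13.1% were called higher and 3.05%, 7.94% and 10.3% lower at 2 dpi, and 17.6%, 14.9% and 16.3% higher and 14.9%, 11.6% and 11.8% lower at 7 dpi. Ribosome biogenesis factors, which process rRNA and assemble subunits, were called higher at 2 dpi for 4 of 63 genes in RAG mice (6.35%), 7 of 61 in PHIL mice (11.5%) and 16 of 61 in WT mice (26.2%), close to the share of all genes in RAG and PHIL mice, with 0, 0 and 1 called lower and medians of 0.16, 0.19 and 0.24. In WT mice Polr1c, a subunit of RNA polymerases I and III, was at least 2.49-fold higher and Ddx21, a nucleolar helicase, at least 1.24-fold higher, each against the detection limit, and Emg1, an 18S rRNA methyltransferase, was 2.08-fold higher (adjusted p = 2.26e-05, 0.000131 and 0.000277). At 7 dpi the medians were -0.19, -0.05 and -0.12 in RAG, PHIL and WT mice, where those of all genes were -0.09, -0.07 and -0.06, and 3, 3 and 5 genes were called higher and 3, 3 and 2 lower. Nop58, of the box C/D particles that methylate rRNA, was 2.14-fold higher in PHIL mice and 2.22-fold higher in WT mice at 7 dpi (adjusted p = 3.19e-05 and 1.91e-05).

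Initiation factors were called higher at 2 dpi for 2 of 31 genes in RAG mice (6.45%), 5 of 29 in PHIL mice (17.2%) and 6 of 29 in WT mice (20.7%), and lower for 0, 2 and 1. They included Eif4a1, the helicase of the cap-binding complex, at 1.70-fold in RAG and 2.20-fold in PHIL mice (adjusted p = 0.0317 and 5.68e-05), and Eif3k at 2.11-fold in WT mice (adjusted p = 0.00072). Elongation and release factors were called higher for 0 of 12, 1 of 10 and 2 of 10 and lower for 1, 2 and 2. Eef2k, the kinase that inhibits elongation factor Eef2, fell by 1.15, 1.08 and 0.87 on the log2 scale at 2 dpi in RAG, PHIL and WT mice (adjusted p = 0.00548, 0.00207 and 0.00576), whereas Eef1b2, an exchange factor of eEF1A, rose 1.59-fold in PHIL and 1.94-fold in WT mice (adjusted p = 0.00663 and 0.000479). Other genes with TOP mRNAs were called higher for 2 of 20, 2 of 17 and 3 of 17, with medians of 0.13, 0.14 and 0.12. Growth control genes such as those of mTOR signalling were called higher for 0 of 16, 1 of 14 and 1 of 14 and lower for 2, 0 and 1. Fau, which encodes a ribosomal protein fused to a ubiquitin-like one and lies outside the symbol rule, had changes of 0.54, 0.18 and 0.33 at 2 dpi and was not called.

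Mitochondrial ribosomal proteins, which serve the ribosome of the organelle, had medians at or below those of all genes, except in RAG mice at 2 dpi. At 2 dpi their median change was 0.01 in RAG mice (71 genes), -0.20 in PHIL mice and -0.24 in WT mice (68 genes), with 0, 2 and 3 called lower and 0, 1 and 2 called higher. At 7 dpi it was -0.43, -0.34 and -0.32, with 14, 9 and 6 called lower (19.7%, 13.2% and 8.82%) and 1, 0 and 0 called higher. Mrpl57 had changes of -0.90 in PHIL mice and -0.91 in WT mice at 7 dpi (adjusted p = 0.00106 and 0.000931).

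Marker genes of other cell types also changed with infection. Of the macrophage and monocyte markers measured, 11 of 13 were called higher at 2 dpi in RAG mice, 10 of 12 in PHIL mice and 11 of 12 in WT mice, and 12, 9 and 11 at 7 dpi. Their summed normalised signal in RAG mice was 35818 to 37338 in naive mice, 64236 to 99723 at 2 dpi and 92580 to 119685 at 7 dpi. In PHIL mice it was 2322 to 2537, 10759 to 12417 and 10087 to 13748, and in WT mice 1749 to 2038, 8587 to 11246 and 7857 to 11128. Endothelial genes were called lower at 2 dpi for 3 of 9 in RAG mice, 4 of 9 in PHIL mice and 7 of 9 in WT mice, with medians of -0.54, -0.54 and -0.67. The summed signal of 16 muscle fibre genes in RAG mice was 627390 to 632258 in naive mice, 617372 to 636393 at 2 dpi and 573889 to 597564 at 7 dpi. In PHIL mice it was 329676 to 341562 in naive mice, 328228 to 338539 at 2 dpi and 293971 to 324705 at 7 dpi, and in WT mice 346559 to 357892 in naive mice, 340941 to 360986 at 2 dpi and 319219 to 328271 at 7 dpi. Such sums weigh the brightest genes most. Called lower at 2 dpi were 1, 2 and 2 of the 16 fibre genes in RAG, PHIL and WT mice (6.25%, 12.5% and 12.5%). At 7 dpi these were 4, 3 and 2 (25%, 18.8% and 12.5%), and 0 were called higher at either time. Of all genes, 3.05%, 7.94% and 10.3% were called lower at 2 dpi and 14.9%, 11.6% and 11.8% at 7 dpi. The median changes of the fibre genes were -0.01, -0.03 and 0.03 at 2 dpi and -0.32, -0.23 and -0.22 at 7 dpi. The part of these markers in the ribosomal protein result was not tested.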

How the data were processed

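The authors deposited, for 25697 probes and 24 arrays, the mean bead signal (linear intensity from GenomeStudio 1.8, before any normalisation) together with the p-value of detection. They also deposited normalised values on a linear scale, used only as an alternative, and describe lumi (background subtraction, variance stabilisation, robust spline normalisation) and limma. Here signals were corrected and quantile normalised with neqc (limma 3.58.1, R 4.3.3, offset 16), for 8 RAG and 16 PHIL and WT arrays apart, and all 24 together to compare RAG with WT responses. Levels are log2 values. Probes detected (p under 0.01) on at least 2 arrays were kept, and each gene took its kept probe of highest interquartile range. Replicates are separate mice, grouped by the labels. Group means were fitted in limma (residual df 5 and 10) over all genes, with Benjamini-Hochberg adjustment over the 3 RAG comparisons together and otherwise per comparison, and calls at adjusted p of at most 0.05 and 1.5-fold (log2 0.59). A fold with no array detected in 1 group is a bound against the lowest detected signal. The procedure was tested on simulated data. The number of arrays limits precision.

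Members and lists were chosen with earlier results of these data known. Genes are named by rule: the 10 largest called changes per comparison, stalk and 5S rRNA binding proteins, paralogues with partners, members whose probes disagree or that were called against the majority, and the 3 largest called changes of each list (Fau was named outside it, as the only measured gene of its list). Alternatives covered background, normalisation, filter, probe choice, replicate block, thresholds and leaving out each array.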

Additional observations from a re-analysis of the deposited data

Results flagged for a closer look

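The change from naive to 2 dpi differed between RAG and WT mice for Rps24 (-1.33 on the log2 scale, RAG minus WT), Rps9 (-0.86) and Rpl5 (-0.75), by a limma test of the difference itself (adjusted p = 0.0266, 0.0186 and 0.0448). These 3 of 56 members (5.36%) stood against 6.03% of all genes called in that test. The change was lower in RAG mice for each, and 3.82% of all genes were called lower and 2.21% higher. It was 0.14 in RAG mice and 0.98 in WT mice for Rps9, and 0.20 and 0.93 for Rpl5. For Rps24 it was 0.07 in RAG mice and at least 1.59-fold in WT mice, where no naive array detected the probe, so its difference is a fitted value and not a measured size. Rps24 and Rps9 have a second probe on which the difference was not called. The call was lost for Rpl5 in 15 of 34 alternative settings, for Rps24 in 7 and for Rps9 in 4. These genes were not among the members of mean signal over 40000 on the RAG arrays.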

How the results depend on the processing

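Of 56 calls of members, 24 were kept under every change of processing and with each array left out, thresholds unchanged, with Rpl3 among them at both times in each strain. Counts of called members moved by over 1.5 times as follows. Scaled to a common median, which put the median change of all genes at 0.19 in PHIL and 0.30 in WT mice at 2 dpi and at 0.39 and 0.36 at 7 dpi, the counts were 22 (PHIL 2 dpi), 10 (PHIL 7 dpi), 32 (WT 2 dpi), 12 (WT 7 dpi), 12 and 4 (RAG against WT response at 2 and 7 dpi) and 0 (RAG 7 against 2 dpi). Without background correction they were 3 (RAG 2 dpi), 0 (RAG 7 against 2 dpi), 3 (WT 7 dpi), 3 (WT 7 against 2 dpi) and 1 (PHIL against WT at 7 dpi). The authors' normalised values gave 3 (RAG 2 dpi), 0 (RAG 7 against 2 dpi), 3 (WT 7 dpi) and 1 (PHIL against WT at 7 dpi). The RAG count at 7 against 2 dpi was also 0 with an offset of 50 or with 24 arrays normalised together, the RAG count at 2 dpi was 3 with no detection filter, and the RAG count at 7 dpi was 2 with the mean of probes. With a 2-fold threshold the counts were 0, 0 and 0 in RAG mice, 0, 0 and 1 in PHIL mice and 3, 1 and 0 in WT mice (2 dpi, 7 dpi, 7 against 2 dpi), and 1 for the RAG against WT response at 2 dpi. By adjusted p alone they were 9 and 5 in RAG mice (2 dpi, 7 against 2 dpi), 32, 13 and 25 in PHIL mice and 40, 22 and 21 in WT mice. With the brightest probe, chosen after seeing the data, they were 3 (WT 7 dpi) and 1 (RAG against WT response at 2 dpi), Rps19 in WT mice at 7 dpi reversed to 0.28 (adjusted p = 0.0555) and Rps9 in the RAG against WT response at 2 dpi to 0.11 (adjusted p = 0.656). Apart from what the settings themselves fix, the cause was not tested. Leaving out each array gave 2 to 7 (RAG 2 dpi), 1 to 5 (RAG 7 dpi), 0 to 3 (RAG 7 against 2 dpi), 7 to 12, 1 to 2 and 6 to 9 (PHIL), 14 to 17, 4 to 9 and 4 to 7 (WT), 0 to 4 (RAG against WT response at 2 dpi), and 0 for the rest. Where a naive group then had 1 array, its spread was taken from the remaining groups. The covariate Eif2s3y, also chosen after seeing the data, moved no count by over 1.5 times.

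Same-numbered mice did not deviate together (mean r = -0.02 on the RAG arrays and 0.001 on the PHIL and WT arrays), so the numbers were not taken as pairs. With the replicate block 8 members were called in RAG mice at 2 dpi, and no other count moved by over 1.5 times. Dim probes limit Rps24, Rps19, Rps3a1 and Rps23, and signals near the top of the range limit 10 members in RAG mice.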
